A study of Sus scrofa with 4 samples.

Results

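The genes described here are 10 markers of macrophages, measured in muscle biopsies of pigs (Sus scrofa). They are CD68, CD163, CD14, LYZ, C1QA, C1QB, C1QC, CSF1R, AIF1 and MRC1, chosen by symbol, though with earlier results of these data known. Each had 1 row in the expression table, which held 29692 gene symbols in all. RNA sequencing libraries were made from muscle of the Hampshire breed (2 libraries) and of the Mali breed (2 libraries), which the labels describe as differing in muscularity. No treatment separates the groups; the sources used here do not state age, sex, the muscle sampled or whether the libraries of a breed came from separate animals. The p-values below therefore measure only the spread between these samples, which may be technical.

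Macrophages are the phagocytes resident in the connective tissue between muscle fibres, where they clear dead cells and debris and take part in repair after injury. Their survival depends on signals through the receptor CSF1R, which binds the growth factors CSF1 and IL34. They are also a main source of C1q, the protein that starts the classical complement cascade, and of scavenger receptors such as CD163 and MRC1. None of these genes is confined to macrophages in every tissue: lysozyme and CD14 are also made by monocytes and neutrophils, and MRC1 by lymphatic endothelium.

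The values are FPKM, which divide a gene's fragments by its length and by the size of the library, so levels of different genes can be compared, but the read depth behind them is unknown. FPKM summed to 756253 to 988614 in the Hampshire libraries and to 516463 to 894809 in the Mali libraries, and the 13 protein genes of the mitochondrial genome took 21.3% to 42.5% of the sum in Hampshire and 17.1% to 19.4% in Mali. The muscle markers alpha-actin (ACTA1) and creatine kinase (CKM) were at 18456 FPKM or more in the Hampshire libraries and 12493 or more in the Mali libraries, so the labelled tissue was present in each. The 10075 genes that reached 1 FPKM in 2 or more libraries were tested with limma on log2(FPKM + 1), Hampshire minus Mali. Fold differences on that scale understate the change of low genes. Of the markers, 9 entered the test, and LYZ did so through the Hampshire libraries alone. The same holds for IRF8, CD55, TLR4, CSF3R and CXCR2 among the other genes named below, so their direction is partly set by the filter. MRC1 reached 1 FPKM in only 1 library and was not tested.

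Macrophage marker transcripts had higher FPKM in Hampshire muscle, chiefly in 1 of its libraries, and no single gene passed the test. The 10 markers together had 65.8 and 116 FPKM in Hampshire replicates 1 and 2, against 44.5 and 30.4 FPKM in Mali replicates 1 and 2. Both Hampshire libraries lay above both Mali libraries in this sum, and Hampshire replicate 2 stood highest. As a share of all FPKM in the library, however, the markers took 0.00665% and 0.0154% in Hampshire, against 0.00861% and 0.00339% in Mali, so that Hampshire replicate 1 lay below Mali replicate 1 and the breeds overlapped. In 7 of the 10 genes the lower Hampshire library exceeded the higher Mali library, a pattern found in 16.6% of the 20228 genes detected in any library and in 13.0% of the tested genes. The opposite pattern, found in 23.6% of the tested genes, was seen in 0 of the 10. Of the 9 tested markers, 6 had this order in FPKM as deposited and 6 with median-of-ratios size factors (16.8% of the tested genes), but 3 after rescaling to a common sum (5.18% of the tested genes), namely LYZ, AIF1 and CD68. For 1 of the 7, MRC1, the nearest libraries of the breeds were at 0.608 and 0.598 FPKM. In bulk tissue, fewer cells of a type and less RNA per cell cannot be told apart.

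The level in Hampshire replicate 2 sets much of this pattern. It was the highest library for 9 of the 10 markers, whereas it was the highest for 20.4% of the tested genes. The median log2 difference of the 10 markers was 0.81, beside 0.0017 over the 20228 detected genes. Between the replicates numbered 1, whose titles carry no suffix, the median was 0.32 with 7 of 10 genes positive, beside -0.05 and 45.9% of genes positive over all tested genes. Between the replicates numbered 2, whose titles end in 1, it was 1.40 with 10 of 10 positive, beside -0.17 and 39.1%. For the 9 tested genes the median was 0.97, beside -0.12 over all tested genes, of which 39.5% were positive, and it was 0.59 without Hampshire replicate 2.

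In limma with Benjamini-Hochberg adjustment, 0 of the 9 tested markers passed, and 0% of all tested genes did. Their adjusted p ran from 0.417 for LYZ to 0.990 for CD14. An unadjusted p under 0.05 was found for 4 of the 9, namely LYZ, AIF1, C1QC and C1QA, beside 7.09% of all tested genes. All 4 were higher in Hampshire, as were 4.29% of all tested genes at that p. For LYZ this direction is partly set by the filter. In the authors' deposited table, LYZ, C1QC and C1QA had p of 0.006, 0.00785 and 0.027, and the q of the 10 markers ran from 0.283 to 0.999. A p under 0.05 stood in 3.05% of the rows of the authors' deposited table.

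**Figure D1:**
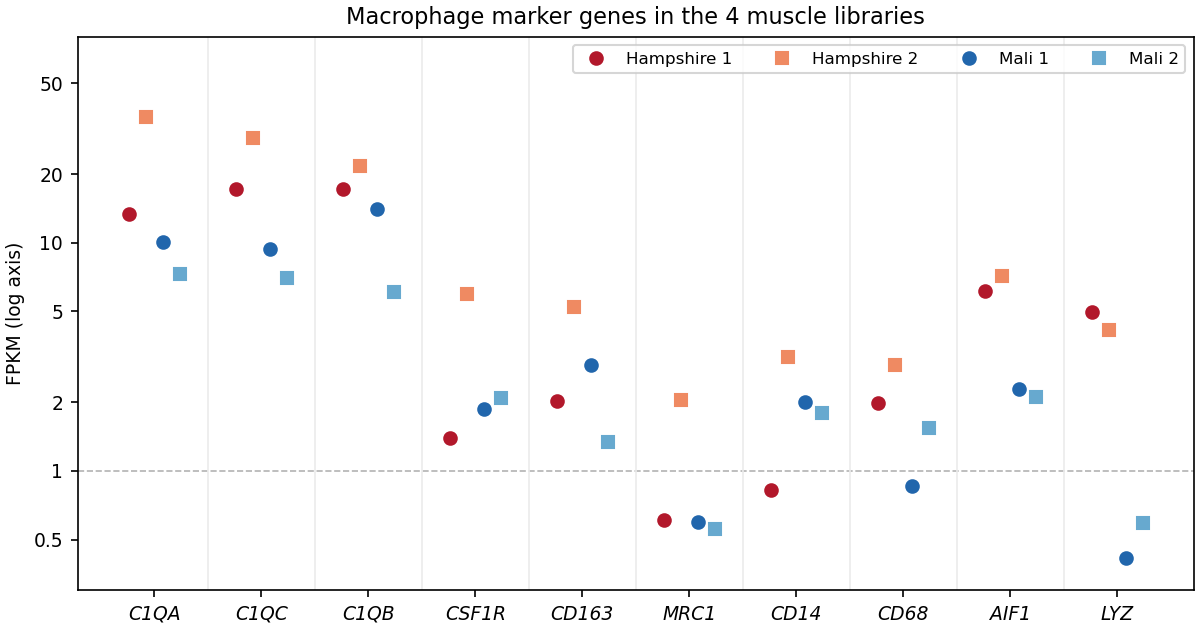
FPKM (log axis) of the 10 macrophage marker genes in each of the 4 libraries, with the dashed line at 1 FPKM. LYZ and AIF1 sit high in both Hampshire libraries, whereas CSF1R, CD163, MRC1 and CD14 sit high in Hampshire replicate 2 alone.

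The C1q chains were the most abundant markers. C1q is assembled from A, B and C chains in equal number, which bind through their heads to antibody complexes or dying cells and carry the proteases C1r and C1s. The 3 genes are neighbours on the same strand of chromosome 6 in the Sscrofa11.1 build, C1QA at 80586259 to 80589213, C1QC at 80592591 to 80597464 and C1QB at 80601680 to 80606076, a stretch of 19818 bases. C1QA was at 13.4 and 35.4 FPKM in Hampshire, against 10.1 and 7.27 FPKM in Mali. C1QC was at 17.2 and 28.7 FPKM in Hampshire, against 9.35 and 7.0 FPKM in Mali. C1QB was at 17.2 and 21.6 FPKM in Hampshire, against 14.1 and 6.08 FPKM in Mali. All 3 chains were highest in Hampshire replicate 2 and lowest in Mali replicate 2, and in FPKM as deposited the breeds did not overlap. After rescaling to a common sum they did for each chain, since Hampshire replicate 1 then lay below Mali replicate 1, at 10.7 against 15.4 for C1QA, 13.7 against 14.3 for C1QC and 13.8 against 21.6 for C1QB. In deposited FPKM the gap was narrow for C1QB, whose lower Hampshire library was 1.22 times its higher Mali library.

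The mean C1QC level was 22.9 ± 8.09 FPKM in Hampshire and 8.18 ± 1.66 FPKM in Mali (SD over 2 libraries per breed), a ratio of 2.81. Its log2 difference was 1.35 with a 95% interval of 0.34 to 2.37 and an adjusted p of 0.597. C1QA averaged 24.4 ± 15.6 FPKM in Hampshire and 8.67 ± 1.98 in Mali, also a ratio of 2.81, with a log2 difference of 1.26, an interval of 0.014 to 2.50 and an adjusted p of 0.697. C1QB averaged 19.4 ± 3.11 FPKM in Hampshire and 10.1 ± 5.68 in Mali, with a log2 difference of 0.97, an interval of -0.16 to 2.11 and an adjusted p of 0.786. Between replicates 1 of the breeds the log2 differences were 0.38, 0.82 and 0.27 for C1QA, C1QC and C1QB, and between replicates 2 they were 2.14, 1.89 and 1.68.

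The chains kept similar but not fixed proportions. C1QA made up 27.9% and 41.3% of the C1q FPKM in Hampshire, against 30.04% and 35.7% in the Mali libraries. For C1QB these shares were 36.1% and 25.2% in Hampshire, against 42.1% and 29.9% in Mali. Within each breed, C1QA thus had the larger share in replicate 2 and C1QB in replicate 1. Together the chains took 72.7% and 73.8% of the FPKM of all 10 markers in Hampshire, and 75.4% and 67.02% in Mali, so sums over the markers mostly follow C1q. The other 7 markers summed to 17.9 and 30.5 FPKM in Hampshire, against 10.9 and 10.02 FPKM in Mali, again without overlap in FPKM as deposited.

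**Figure D2:**
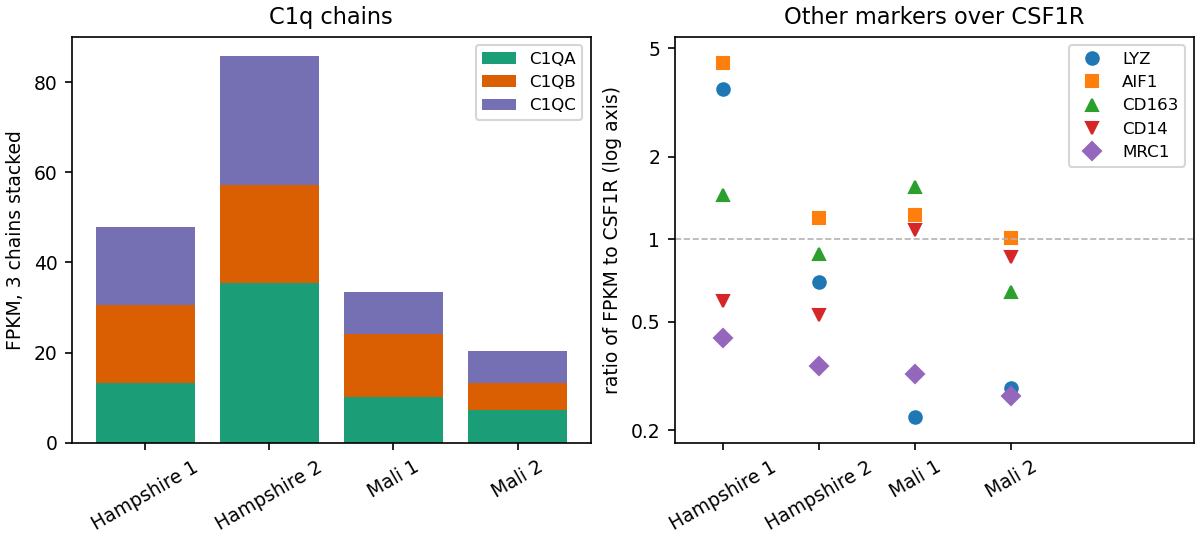
Left, FPKM of the 3 C1q chains stacked for each library, from 85.8 in Hampshire replicate 2 down to 20.4 in Mali replicate 2. Right, FPKM of 5 other markers divided by that of CSF1R in the same library (log axis), where LYZ lies at 3.56 and 0.696 in Hampshire and at 0.224 and 0.285 in Mali.

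LYZ and AIF1 were high in both Hampshire libraries. LYZ encodes lysozyme, which cuts the cell wall of bacteria and is secreted by macrophages and their relatives. It was at 4.96 and 4.14 FPKM in Hampshire, against 0.416 and 0.593 FPKM in Mali. LYZ was the 1 marker whose highest library was Hampshire replicate 1, and the breeds were far apart. Its mean was 4.55 ± 0.583 FPKM in Hampshire and 0.505 ± 0.125 in Mali (SD over 2 libraries per breed), a ratio of 9.01. On the log2 scale the difference was 1.88 with a 95% interval of 1.17 to 2.59 and an adjusted p of 0.417. It was 2.07 between replicates 1 and 1.69 between replicates 2, and 1.77 to 1.99 with any 1 library left out. The gene lies on chromosome 5 (33612593 to 33618953).

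AIF1 (also called IBA1) encodes a calcium-binding protein that bundles actin in macrophages and is a common stain for them. AIF1 was at 6.14 and 7.12 FPKM in Hampshire, against 2.29 and 2.11 FPKM in Mali. The replicates of each breed lay close together and the breeds did not overlap. Its mean was 6.63 ± 0.690 FPKM in Hampshire and 2.20 ± 0.126 in Mali, a ratio of 3.01, with a log2 difference of 1.25, a 95% interval of 0.49 to 2.02 and an adjusted p of 0.461. Between replicates 1 the log2 difference was 1.12 and between replicates 2 it was 1.38. The annotated span of AIF1 on chromosome 7 (23711752 to 23731191) overlaps LST1 on the same strand and NCR3 on the other, both genes of leukocytes, and the sources used here do not state how shared reads were assigned, so the value is uncertain. LST1 was at 0.412 and 0.781 FPKM in Hampshire, against 0.686 and 0.443 FPKM in Mali, and NCR3 was at most 0.10 FPKM in any library.

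CSF1R and the surface receptors of tissue macrophages had another pattern, with high values in Hampshire replicate 2 alone. CSF1R was at 1.39 and 5.94 FPKM in Hampshire, against 1.86 and 2.08 FPKM in Mali. The haemoglobin scavenger receptor CD163 was at 2.02 and 5.23 FPKM in Hampshire, against 2.90 and 1.33 FPKM in Mali. CD14, which presents bacterial lipopolysaccharide to TLR4, was at 0.826 and 3.15 FPKM in Hampshire, against 2.01 and 1.80 FPKM in Mali. For these 3 genes the breeds overlapped, since Hampshire replicate 1 lay below at least 1 Mali library. For CSF1R and CD14 it was the lowest of the 4 libraries.

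The mannose receptor MRC1, an endocytic lectin, was at 0.608 and 2.05 FPKM in Hampshire, against 0.598 and 0.558 FPKM in Mali. Thus 3 of the 4 libraries were nearly level and Hampshire replicate 2 stood apart. Between the replicates of Hampshire, CSF1R was 4.26 times as high in replicate 2 as in replicate 1, CD14 3.81 times, MRC1 3.37 times, C1QA 2.65 times and CD163 2.59 times. The same ratio was 1.16 for AIF1 and 0.834 for LYZ, and its median over all tested genes was 0.952. The SD within Hampshire was larger than the difference between the breed means for CSF1R, CD163, CD14 and MRC1, and about equal to it for C1QA.

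None of the 3 tested receptor genes CSF1R, CD163 and CD14 was near the threshold. The log2 difference was 0.46 for CSF1R (95% interval -0.73 to 1.64, adjusted p = 0.935 in limma) and 0.52 for CD163 (-0.54 to 1.59, adjusted p = 0.904). For CD14 it was -0.08 (-1.08 to 0.93, adjusted p = 0.990), although the ratio of the mean FPKM was 1.04, and with median-of-ratios size factors the log2 difference was 0.015. The intervals of CSF1R and CD163 include differences as large as those of the C1q chains, and that of CD14 reaches 0.93, so the values do not show that the breeds are alike. Between replicates 1 the log2 differences of CSF1R, CD163 and CD14 were -0.26, -0.37 and -0.72, and between replicates 2 they were 1.17, 1.42 and 0.57. The sign for these genes therefore depended on which libraries were set against each other. Without Hampshire replicate 2, the log2 difference of CSF1R was -0.31 and that of CD163 was 0.00056.

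CD68, a heavily glycosylated protein of the lysosome and endosome membrane, was in between. CD68 was at 1.98 and 2.90 FPKM in Hampshire, against 0.862 and 1.54 FPKM in Mali. The breeds did not overlap, and within each breed replicate 2 was higher. Its log2 difference was 0.65 with a 95% interval of -0.12 to 1.42 and an adjusted p of 0.794, and it was 0.68 between replicates 1 and 0.62 between replicates 2. CD68 lies on chromosome 12 (52874754 to 52877256), CSF1R and CD14 on chromosome 2 (151102138 to 151130311 and 142348036 to 142349686), CD163 on chromosome 5 (63300200 to 63334497) and MRC1 on chromosome 10 (44107926 to 44226734).

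**Figure D3:**
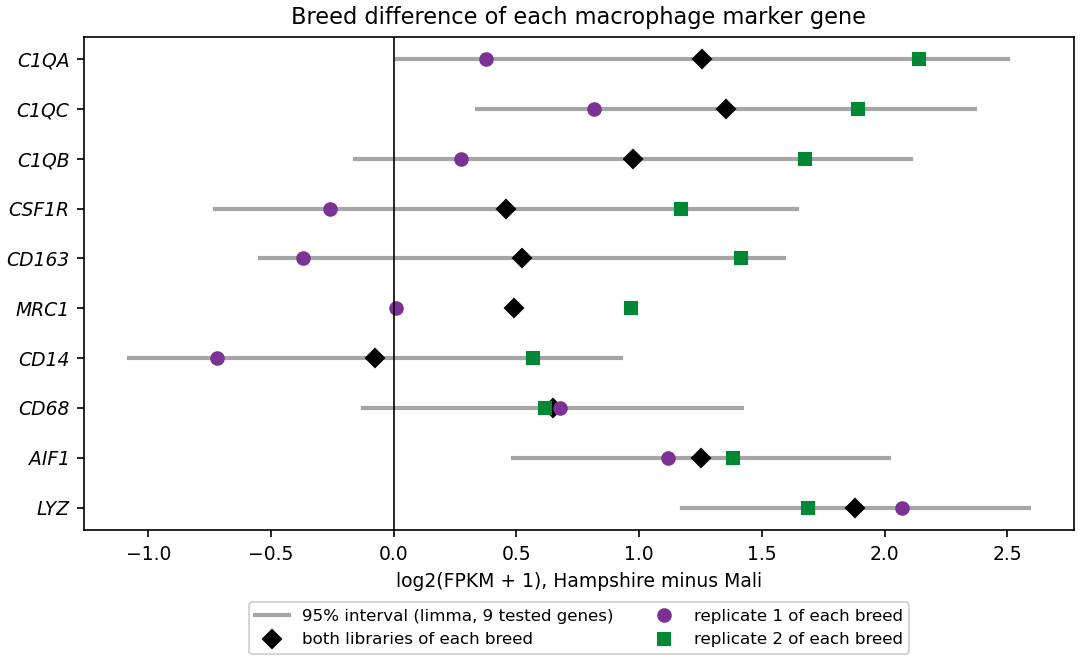
Log2(FPKM + 1) of Hampshire minus Mali for each marker, over both libraries of each breed (diamonds, with the limma 95% interval for the 9 tested genes) and between the libraries of the same replicate number. LYZ, AIF1 and CD68 have similar differences in both pairs, whereas CSF1R, CD163 and CD14 are below 0 between replicates 1 and above 0 between replicates 2.

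The order of the markers by level, which FPKM allows, was much alike in both breeds apart from LYZ. In Hampshire the mean FPKM ran C1QA, C1QC, C1QB, AIF1, LYZ, CSF1R, CD163, CD68, CD14 and MRC1. In Mali it ran C1QB, C1QA, C1QC, AIF1, CD163, CSF1R, CD14, CD68, MRC1 and LYZ. Lysozyme thus ranked 5 in Hampshire and 10 in Mali. Neighbours in these orders did not differ beyond their spread among the C1q chains in either breed, from LYZ down to MRC1 in Hampshire, among AIF1, CD163, CSF1R and CD14 in Mali, and between MRC1 and LYZ in Mali. In both breeds each C1q chain lay above every library of AIF1.

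Ratios within a library do not depend on how the library was scaled. Relative to CSF1R, LYZ was at 3.56 and 0.696 in Hampshire, against 0.224 and 0.285 in Mali, and AIF1 was at 4.4 and 1.20 in Hampshire, against 1.23 and 1.01 in Mali. The LYZ ratio separated the breeds, the AIF1 ratio did not, and Hampshire replicate 1 was the highest library for both. CD14 relative to CSF1R was at 0.592 and 0.530 in Hampshire, against 1.08 and 0.864 in Mali, and so was lower in both Hampshire libraries. Relative to PTPRC (CD45), a surface protein of all white blood cells, LYZ was at 1.58 and 0.983 in Hampshire, against 0.24 and 0.642 in Mali. The ratio of C1QC to PTPRC was 5.5 and 6.82 in Hampshire, against 5.38 and 7.58 in Mali, and that of AIF1 was 1.96 and 1.69 in Hampshire, against 1.32 and 2.28 in Mali. Per unit of PTPRC, C1QC and AIF1 overlapped between the breeds and LYZ did not. The ratio of CSF1R to PTPRC was 0.445 and 1.41 in Hampshire, against 1.07 and 2.25 in Mali.

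The growth factor axis of macrophages was examined next, over 11 listed genes of which 6 were tested and 0 passed. CSF1, the main ligand of CSF1R, was at 2.77 and 2.12 FPKM in Hampshire, against 1.17 and 1.03 FPKM in Mali. IL34, the other ligand, was at 2.73 and 4.63 FPKM in Hampshire, against 0.846 and 5.68 FPKM in Mali. CSF1 separated the breeds and IL34 spanned its whole range within Mali. IRF8, a transcription factor of monocyte and macrophage development, was at 1.66 and 1.25 FPKM in Hampshire, against 0.644 and 0.289 FPKM in Mali. SPI1 (PU.1), the master factor of the myeloid lineage, was at 2.36 and 3.72 FPKM in Hampshire, against 1.71 and 2.37 FPKM in Mali, with overlap. CSF1 and IRF8 were among the 3 of 6 tested genes of this axis with both Hampshire libraries above both Mali libraries, beside 13.0% of all tested genes, and each had an adjusted p of 0.697 in limma. IRF8 entered the test through the Hampshire libraries alone, so its place among the 3 is partly set by the filter. CSF2, the gene of a related growth factor, was listed at 0 in every library.

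Among 26 further macrophage genes, 12 were tested, 0 passed, 9 had a positive log2 difference (39.5% of all tested genes) and their median was 0.34. Their summed FPKM was 64.3 and 111 in Hampshire, against 64.0 and 63.2 in Mali, so Hampshire replicate 1 stood level with the Mali libraries. CTSS, the lysosomal protease cathepsin S, was at 8.15 and 4.96 FPKM in Hampshire, against 2.34 and 1.75 FPKM in Mali (log2 difference 1.28, adjusted p = 0.524 in limma). FCER1G, the signalling chain of Fc receptors, was at 9.16 and 11.5 FPKM in Hampshire, against 4.76 and 5.31 FPKM in Mali (0.90, adjusted p = 0.697). CTSS and FCER1G both separated the breeds, with Hampshire higher. In the other direction, LGALS3, the gene of galectin-3, was at 5.03 and 8.98 FPKM in Hampshire, against 9.84 and 11.2 FPKM in Mali. FOLR2, a folate receptor of resident macrophages, was at 4.97 and 13.2 FPKM in Hampshire, against 13.2 and 13.5 FPKM in Mali. LYVE1, a hyaluronan receptor shared by some resident macrophages and lymphatic endothelium, was at 1.64 and 4.92 FPKM in Hampshire, against 3.18 and 1.66 FPKM in Mali. These last 2 receptors thus had Hampshire replicate 1 as their lowest library, as CSF1R and CD14 did. LGALS3, FOLR2 and LYVE1 fall outside the rule for named genes and were chosen after their values were seen.

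C1q acts with the rest of the complement cascade, of which 23 genes were listed, 13 tested and 0 passed. Both Hampshire libraries lay above both Mali libraries for 5 of the 13 and below them for 1, beside 13.0% and 23.6% of all tested genes, and the median log2 difference was 0.37. Among the C1q partner proteases, C1R was at 19.99 and 37.4 FPKM in Hampshire, against 12.9 and 13.5 FPKM in Mali, and C1S was at 34.7 and 46.2 FPKM in Hampshire, against 25.7 and 20.2 FPKM in Mali. C3AR1, the receptor of the C3a fragment on myeloid cells, was at 2.88 and 2.03 FPKM in Hampshire, against 1.09 and 0.574 FPKM in Mali. C1R, C1S, C3AR1 and the decay-accelerating factor CD55 were among the 5. CD55 entered the test through the Hampshire libraries alone, so its place among the 5 is partly set by the filter. The 1 gene in the other direction was CD59, which blocks the membrane attack complex, at 43.2 and 49.8 FPKM in Hampshire, against 137 and 152 FPKM in Mali (log2 difference -1.62, adjusted p = 0.525 in limma). After rescaling to a common sum CD59 passed, at -1.96 with an adjusted p of 0.0467 in limma. C3, the central component, was at 1.88 and 3.29 FPKM in Hampshire, against 9.14 and 2.32 FPKM in Mali, with overlap. C6, C8A and C8B of the terminal pathway were listed at 0 in every library.

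CD14 works with TLR4 and LY96, which together form the receptor for lipopolysaccharide. TLR4 was at 1.39 and 2.05 FPKM in Hampshire, against 0.895 and 0.811 FPKM in Mali, without overlap in FPKM as deposited. TLR4 also entered the test through the Hampshire libraries alone, so this order is partly set by the filter. LY96 was at 8.57 and 4.4 FPKM in Hampshire, against 8.01 and 4.41 FPKM in Mali. It thus differed by replicate number and hardly by breed. The kinase IRAK1 of the same pathway was at 8.70 and 7.56 FPKM in Hampshire, against 10.5 and 14.9 FPKM in Mali. Of the 10 listed genes of this receptor and its adaptors, 6 were tested, 0 passed, 4 were positive, and the median log2 difference was 0.17.

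CD163 takes up haemoglobin bound to haptoglobin, after which haem oxygenase breaks the haem down. The haptoglobin gene HP was at 1.02 and 2.72 FPKM in Hampshire, against 1.73 and 0.861 FPKM in Mali. Haem oxygenase HMOX1 was at 2.20 and 3.07 FPKM in Hampshire, against 8.99 and 2.43 FPKM in Mali, so Mali replicate 1 stood alone. Transcripts of beta globin (HBB), a measure of blood in the tissue, were at 2525 and 3708 FPKM in Hampshire, against 87.1 and 5469 FPKM in Mali. CD163 had its lowest value in the library with most HBB and its second highest in the library with least. Its highest value, however, was in Hampshire replicate 2, the library with the second most HBB. The biliverdin reductase BLVRB was at 6.81 and 5.34 FPKM in Hampshire, against 9.95 and 13.0 FPKM in Mali, and the haem transporter SLC48A1 was at 7.78 and 8.55 FPKM in Hampshire, against 15.1 and 12.8 FPKM in Mali. BLVRB and SLC48A1 were the 2 of 10 tested genes of the list with both Hampshire libraries below both Mali libraries, a share near the 23.6% of all tested genes. Of 11 listed genes, 10 were tested, 0 passed, 7 were positive, and the median was 0.075.

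Cytokine and chemokine genes of macrophages spanned a wide range of levels. Of 16 listed, 9 were tested, 0 passed, 9 were positive and the median log2 difference was 0.44. CXCL12, a chemokine of stromal cells, had the highest level, at 293 and 238 FPKM in Hampshire, against 153 and 430 FPKM in Mali, with overlap. The monocyte attractant CCL2 was at 8.88 and 7.63 FPKM in Hampshire, against 0.903 and 4.05 FPKM in Mali (log2 difference 1.57, adjusted p = 0.591 in limma, and 0.87 without Mali replicate 1). CXCL10, a chemokine induced by interferon, was at 144 and 3.77 FPKM in Hampshire, against 3.70 and 1.28 FPKM in Mali. Both separated the breeds, but CXCL10 did so by a very narrow gap between Hampshire replicate 2 and Mali replicate 1. After rescaling to a common sum CXCL10 passed, at 2.67 with an adjusted p of 0.00598 in limma. That rescaling put Hampshire replicate 2 below Mali replicate 1, so the breeds then overlapped. Most of the difference came from Hampshire replicate 1. Without that library, the log2 difference of CXCL10 in FPKM as deposited was 0.54. The classical inflammatory cytokines IL1B, TNF and IL6 were at most 0.0616, 0.244 and 0.130 FPKM in any library, and IL10 at most 0.185 FPKM.

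Markers of other white blood cells were set beside the macrophage markers, and their part in the differences was not tested. General leukocyte genes summed to 57.3 and 65.7 FPKM in Hampshire, against 34.1 and 24.2 FPKM in Mali, and in 8 of their 9 tested genes the breeds did not overlap and Hampshire was higher, beside 13.0% of all tested genes, with 12 listed. PTPRC was at 3.13 and 4.21 FPKM in Hampshire, against 1.74 and 0.924 FPKM in Mali (log2 difference 1.02, adjusted p = 0.630 in limma). SRGN, a proteoglycan of white cell granules, was at 24.0 and 20.1 FPKM in Hampshire, against 9.80 and 5.43 FPKM in Mali. The 14 T and NK cell genes in the table summed to 10.2 and 9.50 FPKM in Hampshire, against 8.41 and 4.12 FPKM in Mali. The 9 B and plasma cell genes summed to 8.04 and 6.17 FPKM in Hampshire, against 7.25 and 3.90 FPKM in Mali. In FPKM as deposited, general and T cell sums did not overlap between breeds, and B cell sums did. The general sum was highest in Hampshire replicate 2, as the macrophage sum was, whereas the T and B cell sums were highest in Hampshire replicate 1.

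Neutrophils share LYZ and CD14 with macrophages. The 9 neutrophil genes in the table summed to 11.7 and 29.0 FPKM in Hampshire, against 24.5 and 13.8 FPKM in Mali. S100A8, a calcium-binding protein abundant in neutrophils, was at 2.23 and 8.76 FPKM in Hampshire, against 7.03 and 2.62 FPKM in Mali, and its partner S100A9 was at 2.26 and 5.80 FPKM in Hampshire, against 5.56 and 1.86 FPKM in Mali. These were high in Hampshire replicate 2 and Mali replicate 1, where LYZ was at 4.14 and 0.416 FPKM. The growth factor receptor CSF3R was at 2.28 and 3.38 FPKM in Hampshire, against 0.603 and 0.755 FPKM in Mali, and the chemokine receptor CXCR2 was at 1.74 and 1.33 FPKM in Hampshire, against 0.451 and 0.511 FPKM in Mali. Neither receptor overlapped between the breeds, as was so for LYZ. Both receptors and LYZ entered the test through the Hampshire libraries alone, so this order is partly set by the filter. The receptors were the 2 of 5 tested neutrophil genes with both Hampshire libraries above both Mali libraries, beside 13.0% of all tested genes. The granule genes MPO and ELANE were listed at 0 in 3 of the 4 libraries each and at most at 0.0462 FPKM. The 8 dendritic cell genes summed to 1.46 and 3.20 FPKM in Hampshire, against 1.44 and 1.72 FPKM in Mali, and the 6 mast cell genes to 1.76 and 5.67 FPKM in Hampshire, against 1.95 and 1.98 FPKM in Mali. The mast cell protease gene CPA3 was listed at 0 in every library.

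The library with the highest macrophage markers was also the highest for connective tissue and fat. The 9 fibroblast genes summed to 493 and 1520 FPKM in Hampshire, against 117 and 379 FPKM in Mali. The type III collagen gene COL3A1 stood at 191 and 722 FPKM in Hampshire, against 15.6 and 73.6 FPKM in Mali, and it passed after rescaling to a common sum (log2 difference 3.07, adjusted p = 1.5e-05 in limma). The 6 adipocyte genes summed to 119 and 387 FPKM in Hampshire, against 129 and 105 FPKM in Mali, and the 9 endothelial genes to 59.6 and 117 FPKM in Hampshire, against 61.3 and 70.0 FPKM in Mali. In all 3 lists Hampshire replicate 2 was the highest library, as it was for 9 of the 10 macrophage markers. Hampshire replicate 1 had the lowest endothelial sum, nearly level with that of Mali replicate 1. The 5 lymphatic endothelial genes summed to 9.12 and 9.55 FPKM in Hampshire, against 11.6 and 3.74 FPKM in Mali. Among them, CCL21 was at 0.909 and 6.56 FPKM in Hampshire, against 5.60 and 2.03 FPKM in Mali, and PROX1 was at 0.528 and 0.828 FPKM in Hampshire, against 0.467 and 0.340 FPKM in Mali. Both were highest in Hampshire replicate 2, as MRC1 was, whereas the sum was highest in Mali replicate 1. PDPN was highest in Hampshire replicate 1, at 7.59 and 1.89 FPKM in Hampshire, against 5.07 and 1.23 FPKM in Mali. FLT4 and RELN were highest in Mali replicate 1. The part of these tissues in the marker levels was not tested.

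**Figure D4:**
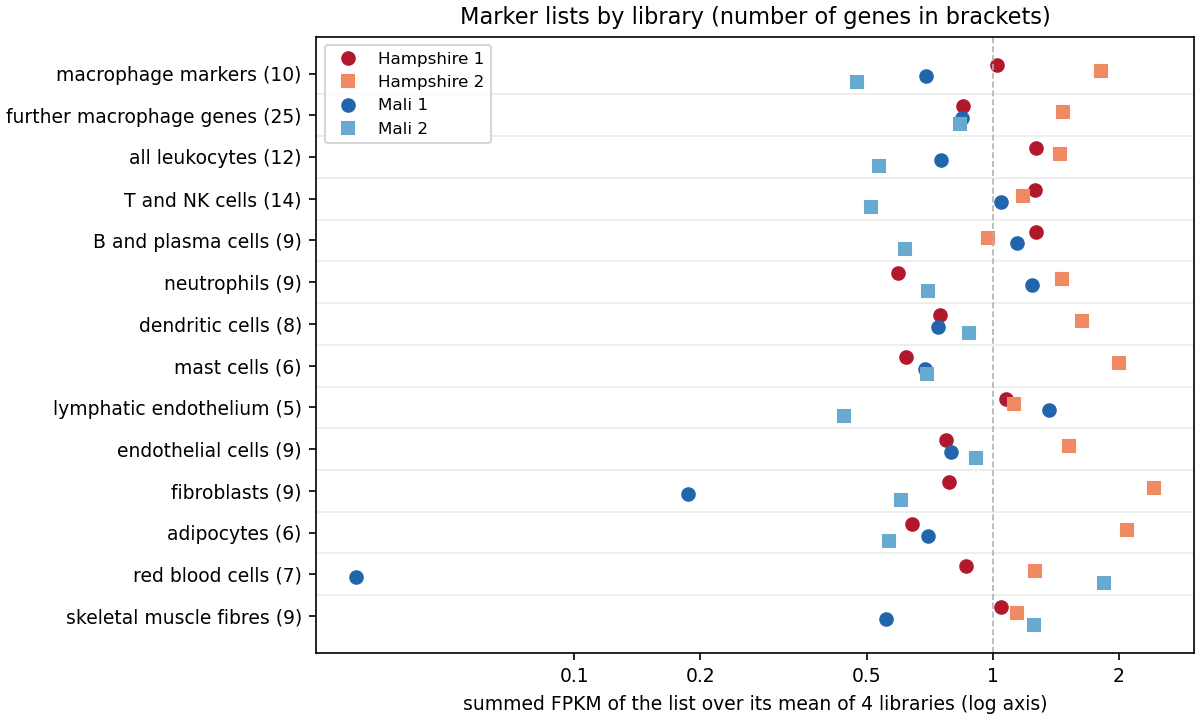
Summed FPKM of each marker list in each library, divided by the mean of the list over the 4 libraries (log axis). Hampshire replicate 2 is the highest library for the macrophage, further macrophage, general leukocyte, neutrophil, fibroblast, adipocyte, endothelial, dendritic and mast cell lists. In FPKM as deposited the breeds do not overlap for the macrophage, general leukocyte, T and NK cell and fibroblast lists. The same holds, by a narrow gap, for the further macrophage genes.

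The 5 tested genes outside the lists whose profile over the 4 libraries was most like the mean profile of the 9 tested markers were FGFRL1, FUCA2, EMP3, ST3GAL4 and FERMT2. Likeness was the root mean square distance of centred log2(FPKM + 1) values, 0.037 to 0.067 for these genes and 0.22 (C1QC) to 0.60 (LYZ) for the markers themselves. FGFRL1 was at 5.61 and 10.5 FPKM in Hampshire, against 3.90 and 3.09 FPKM in Mali. FUCA2, the gene of an alpha-fucosidase, was at 3.74 and 6.98 FPKM in Hampshire, against 2.20 and 1.84 FPKM in Mali. Both were highest in Hampshire replicate 2 and lowest in Mali replicate 2, like the C1q chains. With 4 libraries, many genes can share such a profile.

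The scaling of the libraries bears on the size of these differences and on which genes separate the breeds. Hampshire replicate 1 had the largest FPKM sum and Mali replicate 1 the smallest. After rescaling to a common sum, Hampshire replicate 1 lay below Mali replicate 1 for TLR4, C1R, C1S and PTPRC. The same held for the general leukocyte sum and the T and NK cell sum. For these, the separation in FPKM as deposited was lost. Per 100000 FPKM outside the mitochondrial genes, the 10 markers summed to 11.6 and 19.5 in Hampshire, against 10.7 and 4.09 in Mali, so Hampshire replicate 1 and Mali replicate 1 were nearly level. Rescaled to a common sum per library, the median log2 difference of all tested genes was -0.40 and that of the 9 tested markers 0.64. With that rescaling the differences were 1.70 for LYZ, 1.03 for C1QC, 0.98 for AIF1, 0.93 for C1QA and -0.28 for CD14.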

How the data were processed

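RNA was isolated with Trizol from muscle biopsies and made into libraries with a TruSeq kit, per the labels' protocols. HISAT2, Bowtie 0.12.2, Picard and Cuffdiff are named in the submitters' processing notes without role or order, and the sources used here do not state the strand setting. The deposited table of 30213 rows holds, from the authors, FPKM for each gene in each library, a mean FPKM per breed, and a p-value and q-value of their own comparison. Symbol, start and end matched the Sscrofa11.1 RefSeq table in 99.8% of rows.

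The 1 row with no gene name was dropped, 26 symbols that had turned into dates were read from the gene ID instead, and rows sharing a symbol were added up. Groups came from the breed in the labels, and replicates 1 and 2 were numbered in accession order. Genes reaching 1 FPKM in 2 or more libraries were tested on a log2 scale, log2(FPKM + 1), by limma 3.58.1 under R 4.3.3 (mean-variance trend, two-sided, Benjamini-Hochberg over 10075 genes, threshold 0.05; 2 residual and 5.24 prior degrees of freedom). A check on simulated data with independent libraries asked for small errors in seeded differences and for few false calls. It set no demand on how many seeded differences were found.

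The marker genes and lists were chosen with earlier results of these data known. Named genes were the 10 markers, up to 4 genes of each other list by lowest unadjusted p, 12 fixed genes, and the 5 most alike genes; any other was chosen after its values were seen. Some genes that the rule names are not reported here, but the list counts include them. Listed symbols CYBB, ZAP70, CAMP and MB are not analysed here. Alternatives were a pseudocount of 0.1, no filter, 2 scalings, the highest row per symbol, no trend, each library left out, and a replicate block. Figures used matplotlib 3.10.9.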

Additional observations from a re-analysis of the deposited data

How the results depend on the processing

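No marker gene passed under the main settings or with a pseudocount of 0.1, no filter, either scaling, the highest row per symbol, no trend, or any 1 library left out. The title suffix is shared by replicates of the same number, and the deviations of such libraries from their breed means correlated with r = 0.275 across genes; the labels do not say what the suffix means. With a replicate block by suffix, 261 genes and 1 marker (LYZ, 1.88 on the log2 scale, adjusted p = 7.78e-04 in limma) passed, with 1 residual degree of freedom; adding median-of-ratios size factors to the block, 57 genes and 1 marker (LYZ, 1.96, adjusted p = 0.0386) passed. Over all genes, 0 passed under the main settings (714 at an unadjusted p under 0.05), 68 (21 higher and 47 lower in Hampshire) after rescaling to a common sum, and 7 without Mali replicate 2; the range with 1 library left out was 0 to 7. The median difference of the tested markers ranged from 0.59 (without Hampshire replicate 2) to 1.29 with 1 library left out. The cause of these shifts was not tested. Other named genes that passed were CTSS, CCL2, CXCL10, CSF3R and COL3A1 with the replicate block (adjusted p = 0.0422, 0.0195, 0.00119, 0.0368 and 8.9e-04 in limma), COL3A1 with block and size factors (0.0222), CD59, CXCL10 and COL3A1 after rescaling to a common sum, and HBB without Mali replicate 2 (0.0433). CD14 turned from -0.08 to 0.015 with size factors, with or without the block. With 1 library left out, ranges that crossed 0 were -0.67 to 0.52 for CD14, -0.31 to 1.22 for CSF1R, -0.34 to 0.83 for LYVE1, -0.16 to 0.72 for HP, -0.74 to 0.86 for S100A8, -0.48 to 0.72 for S100A9, -0.54 to 1.31 for IL34, -1.53 to 0.081 for C3, -0.84 to 5.12 for HBB, -1.47 to 0.075 for HMOX1 and -0.37 to 0.46 for LY96. After rescaling to a common sum, LYVE1 was -0.013, LY96 -0.28, S100A8 -0.23 and S100A9 -0.17. Of 576 values of named genes under alternatives, 543 kept their direction and side of the threshold, 12 passed newly and 21 changed sign. With 2 libraries a breed and unknown depth, low genes such as MRC1 cannot be placed firmly. When a library is left out, the lone one of its breed is assumed to vary like the other breed.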

Other observations

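Some macrophage genes that were too low for the test had their highest value in Hampshire replicate 1, unlike 9 of the 10 markers. FCGR1A, the high-affinity Fc receptor, was at 1.81 and 0.314 FPKM in Hampshire, against 0.0971 and 0 FPKM in Mali. SIGLEC1, a sialic acid receptor of macrophages, was at 0.658 and 0.164 FPKM in Hampshire, against 0.0317 and 0.0325 FPKM in Mali. They were chosen after their values were seen and were not tested.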
